A study of Mus musculus with 6 samples.

Results

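The transcripts examined were those of 10 enzymes that write or erase methylation of lysine 9 of histone H3 (H3K9), all 10 of them found among the 36065 genes of the table. They were taken by name: the 6 methyltransferases Ehmt1, Ehmt2, Setdb1, Setdb2, Suv39h1 and Suv39h2, and the 4 demethylases Kdm3a, Kdm3b, Kdm4a and Kdm4c. RNA came from wild-type mouse embryos at the 1-cell stage, cultured in vitro with CBR-5884 and S-adenosylmethionine (CBR+SAM), with CBR-5884 alone (CBR), or with DMSO, the solvent control. CBR-5884 inhibits serine synthesis, and S-adenosylmethionine is the methyl donor of histone methyltransferases. Each group had 2 biological replicates, and no group received S-adenosylmethionine without the inhibitor. How many embryos made up a library is not given in the sources used here.

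Methylation of H3K9 marks silent chromatin. Ehmt2 (G9a) and Ehmt1 (GLP) form a heteromeric complex that mono- and dimethylates H3K9 in euchromatin, Suv39h1 and Suv39h2 trimethylate it at pericentric heterochromatin, and Setdb1 trimethylates it at transposable elements. Demethylases of the Kdm3 family remove mono- and dimethylation, and those of the Kdm4 family remove di- and trimethylation. In the mouse zygote the maternal pronucleus carries H3K9 dimethylation and the paternal pronucleus largely lacks it, and the maternal protein Dppa3 binds to the dimethylated maternal chromatin.

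The libraries had transcripts of oocytes and zygotes, which the markers used here do not tell apart. All 8 marker genes of oocytes and zygotes were present in every library, with summed signals of 24504 to 30809. The signal is an abundance per transcript length, so levels of different genes can be compared on it. Of 10 cumulus cell markers 2 reached a signal of 1 in every library. The cumulus sum was 236.7 in CBR+SAM replicate 2, against 508.4 to 616 in the other libraries, nearly all of it Serpine2. The mean of Serpine2, 496.8, lay above those of Zp3, Gdf9, Nlrp5 and Padi6 and below those of Dppa3, Btg4, Oosp1 and Bmp15. The sperm sum lay between 11.5 and 16.3, nearly all of it Prm2, with Tnp1 at 0, and the blood sum did not exceed 0.701. Read totals are not given with the signal. From the steps between low signals of genes with a single transcript, a signal of 1 was estimated to stand for 20.1 to 25.3 reads per kilobase of transcript. The figure is approximate, with 83.0% to 85.7% of low signals within 0.1 of a whole number of reads. The fragment length was chosen to make that share as high as possible, so the share does not measure the accuracy of the figure. In bulk RNA, fewer transcript-bearing embryos and less transcript per embryo cannot be told apart.

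Of the 10 members, the methyltransferases other than Ehmt2 lay above the median gene, and Ehmt2 and the 4 demethylases lay below it. Suv39h2 was the highest of the 10, with a mean of 95.2 over the 6 libraries, above 87.6% of the genes tested. Suv39h1 followed with a mean of 43.8, then Ehmt1 with 35.2, Setdb2 with 31.4 and Setdb1 with 27.7. The ranges of these last 4 genes overlapped between neighbours, although Suv39h1 exceeded Ehmt1 and Setdb2 exceeded Setdb1 in 6 of 6 libraries. Kdm4a averaged 8.15, near the median of 9.31 of the genes tested. Ehmt2 averaged 2.82, Kdm3b 2.61 and Kdm3a 1.88, and the ranges of Ehmt2 and Kdm3b overlapped. Kdm4c averaged 0.411 and was the only member too low to be tested.

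**Figure D1:**
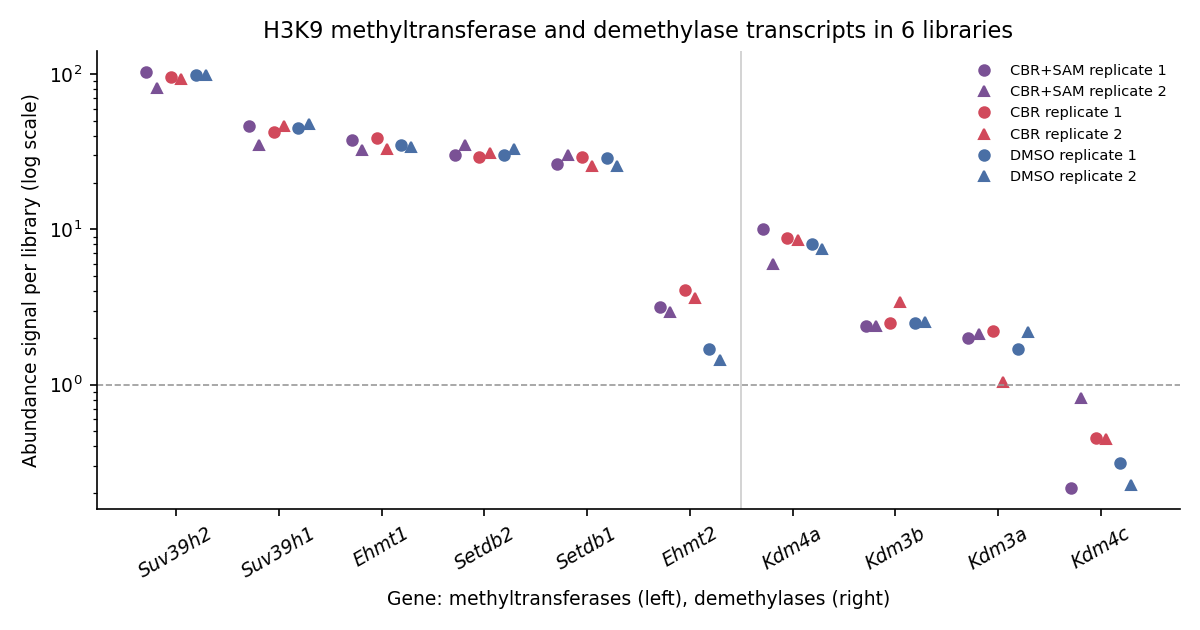
Abundance signal per library (log scale) of the 6 methyltransferases and 4 demethylases, with 1 point per library, colours for the groups CBR+SAM, CBR and DMSO, and the shape for the replicate number. Points of Suv39h2 lie between 81.9 and 104, those of Kdm4c below the dashed line at 1, and the Ehmt2 points of DMSO lie below those of both other groups.

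The summed signal of the 6 methyltransferases was 247.6 and 217.7 in CBR+SAM embryos, 239.3 and 232.7 in CBR embryos, and 239.2 and 240.3 in DMSO embryos. That of the 4 demethylases was 14.6 and 11.3 in CBR+SAM embryos, 13.9 and 13.4 in CBR embryos, and 12.6 and 12.5 in DMSO embryos. The 6 methyltransferases thus exceeded the 4 demethylases by 17.0 to 19.3 times, a ratio of these 10 genes and not of all writers and erasers. With the 3 other methyltransferases and 8 other demethylases of the lists described further on, the ratio was 1.58 and 1.53 in CBR+SAM embryos, 1.57 and 1.49 in CBR embryos, and 1.79 and 1.67 in DMSO embryos. The highest of these 8 demethylases were Kdm7a, Kdm1a and Phf8, with means of 61.8, 33.2 and 31.7 over the 6 libraries. Among the 10, the lowest and highest sums of both kinds were those of the CBR+SAM replicates. Both demethylase sums of CBR exceeded both of DMSO, a description without a test. Suv39h2 made up 37.6% to 42.0% of the methyltransferase sum, and Kdm4a 53.0% to 68.6% of the demethylase sum.

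CBR set against DMSO asked how inhibited serine synthesis bears on the transcripts of these enzymes. Ehmt2 had the largest difference of the members. Its signal was 4.05 and 3.62 in CBR embryos, against 1.70 and 1.43 in DMSO embryos. Both CBR libraries lay above both DMSO libraries, and the means of 3.83 ± 0.303 with CBR and 1.56 ± 0.187 with DMSO (SD, n = 2 each) differed 2.45-fold. On the scale of log2(signal + 1), used for every fitted difference here, CBR minus DMSO was 0.91 (SE 0.19, 95% interval 0.46 to 1.37), with an unadjusted p of 0.00208, the 14th smallest among 12249 genes, and a p adjusted over all genes of 0.9999 by limma. It did not pass the adjusted threshold of 0.05. None of the 9 tested members did, and the share called over all genes was 0%.

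Ehmt2 (ENSMUSG00000013787) lies on the plus strand of chromosome 17, from 34898469 to 34914052 in mm10, and the annotation gives it 14 transcripts, the longest of 4026 bases. Its exons overlap those of no other annotated gene, and no near-identical copy was found among the annotated transcripts. If all its reads came from the longest transcript, the signals stood for about 344 and 358 reads in the CBR libraries and 164 and 114 reads in the DMSO libraries. Over 15 alternative settings the log2 difference ran from 0.84 to 1.24, and the adjusted p (limma) from 0.706 to 1. The largest of these differences, 1.24, came with a pseudocount of 0.1, since adding 1 compresses differences of genes as low as Ehmt2.

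The groups of Ehmt1 (ENSMUSG00000036893, chromosome 2, 24789928 to 24919614), the partner of Ehmt2, overlapped. Its signal was 38.7 and 33.1 in CBR embryos, against 35.0 and 34.0 in DMSO embryos, with the DMSO pair between the CBR replicates. The log2 difference was 0.05, with a 95% interval of -0.33 to 0.43. The ratio of Ehmt1 to Ehmt2 was 9.56 and 9.15 in CBR embryos, against 20.6 and 23.7 in DMSO embryos, and both CBR libraries were below both DMSO libraries. These ratios are a description and were not tested. Ehmt2 made up 1.69% and 1.55% of the methyltransferase sum in CBR embryos, against 0.709% and 0.596% in DMSO embryos, so a difference in Ehmt2 adds little to the sum.

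**Figure D2:**
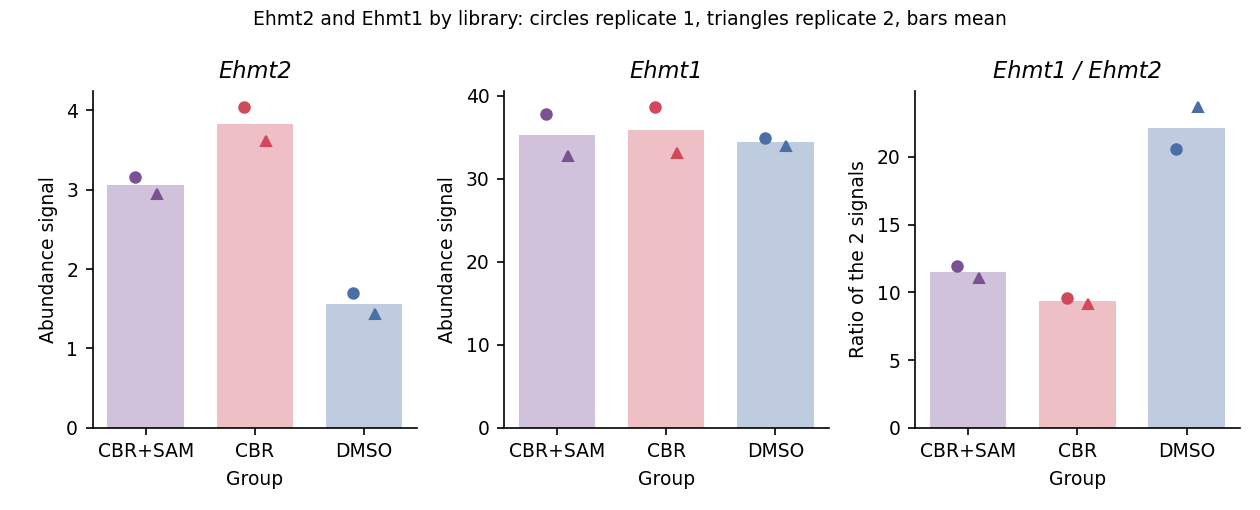
Signal of Ehmt2 (left), signal of Ehmt1 (middle) and the ratio of Ehmt1 to Ehmt2 within each library (right) in CBR+SAM, CBR and DMSO embryos, with circles for replicate 1, triangles for replicate 2 and bars for the mean of the pair. Ehmt2 stands at 1.43 to 1.70 with DMSO and at 2.95 to 4.05 in the other groups, while the Ehmt1 points of all groups lie between 32.7 and 38.7.

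Neither trimethylating enzyme of pericentric heterochromatin differed between CBR and DMSO beyond the error of the fit. Suv39h2 (ENSMUSG00000026646, chromosome 2, 3455815 to 3475031) stood at 95.6 and 93.0 in CBR embryos, against 98.5 and 98.3 in DMSO embryos. The groups did not overlap, CBR being lower, but the log2 difference was -0.06, with an interval of -0.44 to 0.32 and an adjusted p of 0.9999 (limma). Suv39h1 (ENSMUSG00000039231, chromosome X, 8061171 to 8074760) stood at 42.3 and 46.3 in CBR embryos, against 45.4 and 48.1 in DMSO embryos, and the groups overlapped, with an interval of -0.50 to 0.34. An antisense gene shares 14.6% of the exonic bases of Suv39h1 and Dclre1c shares 8.1% of those of Suv39h2, and since the library protocols describe no strand marking, reads of such overlaps cannot be assigned.

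The Setdb enzymes also overlapped between the groups. Setdb1 (ENSMUSG00000015697, chromosome 3, 95323525 to 95357202) stood at 29.3 and 25.6 in CBR embryos, against 28.7 and 25.6 in DMSO embryos, a log2 difference of 0.02 with an interval of -0.37 to 0.40. A short Setdb1 transcript is 99.4% identical over 645 bases to the non-coding gene Gm4349, which stood at 27.8 and 6.2 in CBR+SAM embryos, 38.0 and 31.6 in CBR embryos, and 28.8 and 22.4 in DMSO embryos, so the division of reads between them is uncertain. Setdb2 (ENSMUSG00000071350, chromosome 14, 59402009 to 59440884), a relative of Setdb1, stood at 29.45 and 31.0 in CBR embryos, against 30.02 and 33.0 in DMSO embryos. Its log2 difference was -0.06, with an interval of -0.43 to 0.32.

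Among the demethylases, Kdm4a (ENSMUSG00000033326, chromosome 4, 118136957 to 118180043) stood at 8.77 and 8.51 in CBR embryos, against 8.09 and 7.53 in DMSO embryos. Its groups did not overlap, and the log2 difference of 0.13 had an interval of -0.43 to 0.69. Kdm3b (ENSMUSG00000038773, chromosome 18, 34777047 to 34838660) stood at 2.50 and 3.39 in CBR embryos, against 2.50 and 2.53 in DMSO embryos, and only CBR replicate 2 departed from the others. Without that library its log2 difference was -0.0069, against 0.16 with it, and an antisense gene shares 24.6% of its exonic bases. Kdm3a (ENSMUSG00000053470, chromosome 6, 71588972 to 71632990) stood at 2.227 and 1.034 in CBR embryos, against 1.69 and 2.17 in DMSO embryos, so the CBR replicates lay on either side of the DMSO pair. Its log2 difference was -0.19 with all libraries and 0.14 without CBR replicate 2. Kdm4c (ENSMUSG00000028397, chromosome 4, 74242497 to 74405860) stood at 0.45 and 0.443 in CBR embryos, against 0.314 and 0.225 in DMSO embryos, about 40 and 46 reads against 32 and 19 on its longest transcript.

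The members' share of separate groups was close to that of the whole transcriptome in CBR against DMSO. The groups did not overlap in 3 of the 9 tested members (33.3%), against 33.0% of all genes tested. The median log2 difference was 0.02 over the members and -0.01 over all genes. An unadjusted p (limma) under 0.05 was reached by 1 of the 9 (11.1%), Ehmt2, against 2.12% of all genes. The members were chosen with earlier results of these data known, so this share is only a description. For 8 of the 9, all but Ehmt2, the 95% interval lay within a log2 difference of 1 on either side, and half-widths ran from 0.37 for Setdb2 to 0.64 for Kdm3a. Adding 1 narrows the intervals of low genes, and with a pseudocount of 0.5 or 0.1 the count was 7 of 9, Kdm3a reaching -1.03 and -1.28.

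CBR+SAM set against CBR asked how added methyl donor bears on inhibited embryos. Ehmt2 stood at 3.16 and 2.95 in CBR+SAM embryos, against 4.05 and 3.62 in CBR embryos. Both CBR+SAM libraries lay below both CBR libraries, with a mean of 3.06 ± 0.148 against 3.83 ± 0.303 (SD, n = 2 each). The log2 difference was -0.25 (SE 0.19, interval -0.71 to 0.21), with an unadjusted p of 0.236 and an adjusted p of 0.988 by limma, so it was not told apart from 0. The ratio of Ehmt1 to Ehmt2 was 11.95 and 11.1 in CBR+SAM embryos, against 9.56 and 9.15 in CBR embryos.

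For Suv39h2, Suv39h1 and Kdm4a the CBR+SAM replicates lay further apart than the CBR replicates. Suv39h2 stood at 104 and 81.9 in CBR+SAM embryos, against 95.6 and 93.0 in CBR embryos, and Suv39h1 stood at 46.1 and 34.8 in CBR+SAM embryos, against 42.3 and 46.3 in CBR embryos. Kdm4a stood at 10.01 and 6.0 in CBR+SAM embryos, against 8.77 and 8.51 in CBR embryos. In each of these genes CBR+SAM replicate 2 was the lowest of the 6 libraries. Without that library the log2 differences were 0.14 for Suv39h2, 0.06 for Suv39h1 and 0.19 for Kdm4a, against -0.03, -0.14 and -0.13 with it, so the direction turned. That library also had the low Serpine2 signal, 224.5 against 495.7 to 602 in the other libraries, and its part in these values was not tested.

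Of the other members, Kdm3b was the only one whose CBR+SAM and CBR libraries did not overlap. Ehmt1 stood at 37.8 and 32.7 in CBR+SAM embryos, against 38.7 and 33.1 in CBR embryos, a log2 difference of -0.03. Setdb1 stood at 26.5 and 30.3 in CBR+SAM embryos, against 29.3 and 25.6 in CBR embryos, and Setdb2 at 29.97 and 35.1 in CBR+SAM embryos, against 29.45 and 31.0 in CBR embryos. Both Setdb genes had overlapping groups. Kdm3b stood at 2.37 and 2.37 in CBR+SAM embryos, below both CBR libraries at 2.50 and 3.39. Kdm3a stood at 2.00 and 2.13 in CBR+SAM embryos, between the CBR libraries at 2.227 and 1.034. Kdm4c stood at 0.214 and 0.818 in CBR+SAM embryos, on either side of the CBR libraries at 0.45 and 0.443.

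No member passed the adjusted threshold in CBR+SAM against CBR, where 0.00816% of all genes did, a single gene. The groups did not overlap in 2 of the 9 members (22.2%), Ehmt2 and Kdm3b, against 27.5% of all genes tested. The median log2 difference was -0.03 over the members and 0.01 over all genes, and all 9 intervals lay within 1 on either side. With a pseudocount of 0.5 or 0.1 it was 8 of 9, Kdm3a reaching 1.11 and 1.39. An unadjusted p under 0.05 was reached by 0 of the 9, against 3.09% of all genes.

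CBR+SAM set against DMSO asked whether embryos given both additions differed from the solvent control. Ehmt2 stood at 3.16 and 2.95 in CBR+SAM embryos, against 1.70 and 1.43 in DMSO embryos, a 1.95-fold difference of means. Both CBR+SAM libraries lay above both DMSO libraries, and the log2 difference was 0.66 (SE 0.19, interval 0.20 to 1.12). The unadjusted p was 0.0110, the 45th smallest among the genes tested, and the adjusted p 0.9997 by limma. This comparison shares its DMSO libraries with that of CBR against DMSO, so the values of Ehmt2 in them are not independent of each other.

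In the same comparison the groups did not overlap in 2 of the 9 members, Ehmt2 and Kdm3b, a share of 22.2% against 24.5% of all genes tested. No member passed the adjusted threshold, against 0.00816% of all genes. An unadjusted p (limma) under 0.05 was reached by 1 of the 9, Ehmt2, against 2.14% of all genes. That count too is only a description, since the members were chosen with earlier results known. Kdm3b stood at 2.37 and 2.37 in CBR+SAM embryos, against 2.50 and 2.53 in DMSO embryos, a log2 difference of -0.06. The other 7 members had log2 differences between -0.22 for Suv39h1 and 0.07 for Kdm3a, and for all tested members but Ehmt2 the interval lay within 1 on either side. With a pseudocount of 0.1 that of Kdm3a reached 1.07. The value of Suv39h1 rested on CBR+SAM replicate 2, without which it was -0.02.

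**Figure D3:**
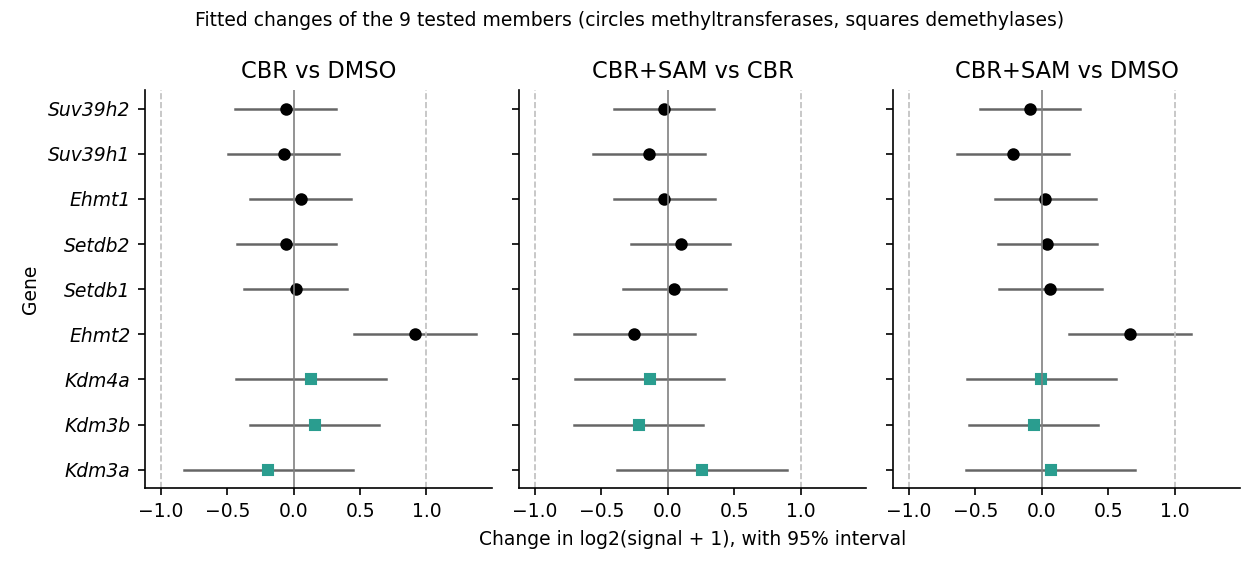
Fitted difference in log2(signal + 1) of the 9 tested members, with 95% intervals, in CBR against DMSO, CBR+SAM against CBR, and CBR+SAM against DMSO, with circles for methyltransferases, squares for demethylases and dashed lines at a log2 difference of 1 either way. The interval of Ehmt2 lies above 0 in the panels with DMSO, at 0.46 to 1.37 and 0.20 to 1.12, and every other interval includes 0.

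Differences between replicates put these values in scale. Over the 9 tested members the median size of the log2 difference between replicates was 0.20 in CBR+SAM, 0.13 in CBR and 0.09 in DMSO, and the largest were 0.65 for Kdm4a in CBR+SAM and 0.67 for Kdm3a in CBR. The replicates of Ehmt2 differed by 0.07, 0.13 and 0.15 in CBR+SAM, CBR and DMSO embryos, less than the 0.91 between CBR and DMSO. These values all entered the fit of Ehmt2 given above, so setting them side by side adds no support to it.

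The genes of the 6 libraries most like Ehmt2 were sought by Pearson correlation of log2(signal + 1), among protein-coding genes, predicted genes left out. Olfr293, an olfactory receptor gene, had r = 0.979, Fam25c had 0.973 and Lpcat2, which encodes a lysophosphatidylcholine acyltransferase, had 0.967. The signal of Olfr293 and that of Fam25c stayed below 2 in every library. Lpcat2 stood at 72.5 and 72.0 in CBR+SAM embryos, 75.2 and 71.5 in CBR embryos, and 62.7 and 57.6 in DMSO embryos, with both DMSO libraries lowest. These correlations were picked as the highest, and 0.31% of all genes tested had an r of at least 0.9 with Ehmt2.

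Other genes of H3K9 methylation were described from lists of 26 further genes, of which 23 were high enough to test. None of the 23 passed the adjusted threshold of limma in CBR against DMSO or in CBR+SAM against CBR, where 0% and 0.00816% of all genes did. An unadjusted p under 0.05 was reached by 0 of the 23 in either, against 2.12% and 3.09% of all genes. In CBR against DMSO 15 (65.2%) had higher and 8 lower means, against 48.3% higher over all genes, with a median log2 difference of 0.05, and the groups did not overlap in 8 of them (34.8%, against 33.0% of all genes). In CBR+SAM against CBR 12 (52.2%) had higher and 11 lower means, against 52.4% higher over all genes, with a median of 0.00, and 7 did not overlap (30.4%, against 27.5%).

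The other methyltransferases were the PR-domain genes Prdm2, Prdm16 and Mecom, all 3 tested. Mecom stood at 1.68 and 2.03 in CBR embryos, against 0.956 and 1.48 in DMSO embryos, with groups that did not overlap and a log2 difference of 0.37 (interval -0.17 to 0.92). Prdm2 stood at 7.98 and 6.25 in CBR embryos, against 9.38 and 7.57 in DMSO embryos, with overlapping groups.

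Of the 8 other demethylases 5 were tested, and Kdm4b, Kdm4d and Hr were too low. Jmjd1c, the third member of the Kdm3 family, stood at 12.2 and 9.79 in CBR+SAM embryos, 14.2 and 15.0 in CBR embryos, and 12.9 and 11.4 in DMSO embryos. Both CBR libraries lay above all others, with a log2 difference of 0.25 (interval -0.17 to 0.68) in CBR against DMSO and -0.38 (interval -0.81 to 0.04) in CBR+SAM against CBR, neither past the threshold. Jmjd1c exceeded Kdm3a and Kdm3b in every library. Kdm1a (LSD1), a demethylase of mono- and dimethylated histone H3, stood at 38.0 and 33.3 in CBR embryos, against 30.8 and 30.4 in DMSO embryos. Its log2 difference was 0.21, with an interval of -0.16 to 0.58. The median of the 5 in CBR against DMSO was this value of Kdm1a, against -0.01 over all genes. Each of the 5 intervals included 0.

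All 7 partners of the methyltransferases were tested. Trim28 (KAP1), the corepressor that brings Setdb1 to transposable elements, stood at 33.3 and 25.8 in CBR embryos, against 19.9 and 25.7 in DMSO embryos. The lower CBR value lay just above the higher DMSO value, and the log2 difference of 0.36 had an interval of -0.25 to 0.96. Atf7ip2, a relative of the Setdb1 cofactor Atf7ip, stood at 21.3 and 19.5 in CBR embryos, against 24.0 and 21.9 in DMSO embryos. The 7 partners had a median of 0.02.

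The HUSH complex silences transposable elements through H3K9 trimethylation, and its 4 listed genes were all tested. Mphosph8, the chromodomain subunit, was the most abundant of them, at 526.6 and 562.9 in CBR+SAM embryos, 571.9 and 678.1 in CBR embryos, and 498.7 and 573.8 in DMSO embryos. The CBR and DMSO libraries overlapped, with a log2 difference of 0.22 (interval -0.14 to 0.58). Morc2a stood at 3.39 and 2.44 in CBR embryos, against 3.52 and 3.31 in DMSO embryos, and 7.52% of its exonic bases overlap the antisense gene Tug1. The 4 genes had a median of 0.04.

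The heterochromatin proteins bind methylated H3K9. Cbx1 stood at 168.9 and 150.7 in CBR+SAM embryos, 178.2 and 182.8 in CBR embryos, and 175.0 and 172.9 in DMSO embryos. The CBR libraries were the highest, by a log2 difference of 0.05 over DMSO with an interval of -0.27 to 0.37. Cbx5 stood at 60.8 and 63.5 in CBR embryos, against 61.5 and 55.2 in DMSO embryos, with overlapping groups. Cbx3 had the wide interval of -1.63 to 1.43, its replicates lying far apart in every group. Dppa3 stood at 13969 and 17885 in CBR+SAM embryos, at 14436 and 15271 in CBR embryos, and at 13565 and 13631 in DMSO embryos, with a log2 difference of 0.13 (interval -0.27 to 0.52) in CBR against DMSO.

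**Figure D4:**
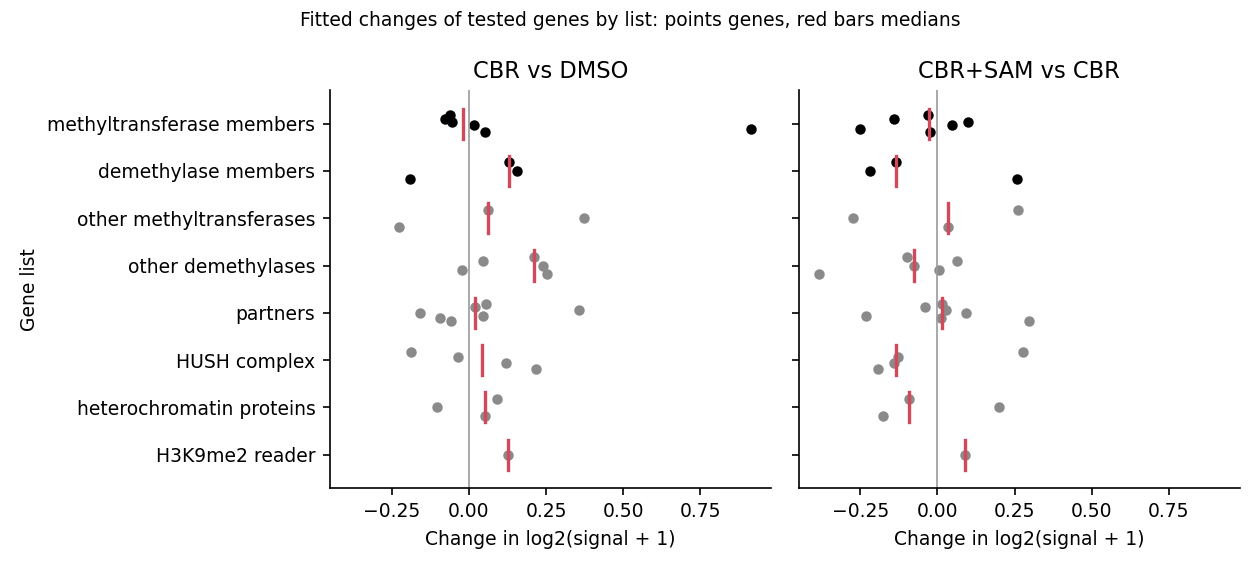
Fitted difference in log2(signal + 1) of each tested gene of the H3K9 lists in CBR against DMSO (left) and CBR+SAM against CBR (right), with points for genes, black for the 9 tested members and grey for the others, and red bars for the list medians. Ehmt2 at 0.91 is the only point beyond 0.5 in either panel.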

How the data were processed

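RNA of mouse 1-cell embryos was sequenced in 6 libraries of 3 groups. The deposited table gives an abundance signal per gene and library, which divides by transcript length and resembles the TPM of kallisto. A further scaling per library had been applied, and how is not stated. The tools named in the submitters' processing notes are fastp, kallisto and DESeq2, with the build mm10, without versions or roles. Read totals are unknown, so no counting intervals are given.

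Of 36065 Ensembl records, 35820 had a symbol in GENCODE M21, an annotation of mm10. The analysis used log2(signal + 1) and the 12249 genes reaching a signal of 1 in 2 or more libraries. One limma model (version 3.58.1, R 4.3.3) held the 3 groups, with eBayes trend and 3 residual degrees of freedom. P-values were adjusted by Benjamini-Hochberg over all genes tested in each comparison, with a threshold of 0.05, and measure only the spread between these libraries. The model was also run on simulated data, with planted differences larger than any fitted for the members. That run does not show whether differences as small as those of the members could be called.

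The members and lists were chosen with earlier results of these data known. From each pathway list, values were given for up to 2 tested genes with the smallest unadjusted p in CBR against DMSO. Outside this rule, Kdm7a and Phf8 were named for their levels, and Cbx3 after its values were seen. For Ehmt2, the 3 protein-coding genes most correlated with it were named, predicted genes left out. Transcript copies of at least 90% identity over 200 bases were sought with blastn (version 2.17.0). The alternatives were other pseudocounts, filters and scalings, a replicate block, library weights, protein-coding genes alone, the 4 libraries of a comparison alone, and leaving out each library.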

Additional observations from a re-analysis of the deposited data

How the results depend on the processing

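The log2 differences of the members were recomputed 420 times over 16 alternatives a comparison. The direction was kept in 392 and turned in 28, and 0 passed the adjusted threshold, the lowest adjusted p (limma) being 0.2424. The filters, the replicate block, library weights, protein-coding genes alone and the 4 compared libraries alone returned the log2 difference of the main fit. So did leaving out a library of the group not compared. Ehmt1 in CBR against DMSO, for example, stayed at 0.053497 under each of them. Such settings cannot turn a direction, so the 392 overstates how far the directions were tried. Ehmt2 kept its direction in all 3 comparisons under all 15 alternatives that tested it. A mean signal of at least 10 leaves out Ehmt2, Kdm3a, Kdm3b and Kdm4a. The groups of Ehmt2 did not overlap in any comparison. Leaving out a library or changing the pseudocount therefore could not turn its direction. The median half-width of the members' 95% intervals was 0.42, which limits what 2 libraries a group can resolve, and by the estimate from read steps Kdm4c rested on 19 to 82 reads a library.

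Scaling each library to the same sum moved the median log2 difference over all genes. In CBR against DMSO it was -0.04, against -0.007 in the main fit. In CBR+SAM against CBR it was -0.02, against 0.014, and in CBR+SAM against DMSO -0.08, against -0.005. The scaling turned Setdb1 to -0.025 in CBR against DMSO, and Ehmt1, Setdb1 and Setdb2 to -0.053, -0.018 and -0.039 in CBR+SAM against DMSO.

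Leaving out each library in turn gave ranges that crossed 0 in CBR against DMSO for Ehmt1 (-0.056 to 0.16), Setdb1 (-0.077 to 0.11), Setdb2 (-0.12 to 0.0099), Kdm3a (-0.52 to 0.14) and Kdm3b (-0.0069 to 0.32). In CBR+SAM against CBR they did for Ehmt1 (-0.14 to 0.084), Setdb1 (-0.046 to 0.14), Setdb2 (-0.012 to 0.21), Suv39h1 (-0.34 to 0.058), Suv39h2 (-0.20 to 0.14), Kdm3a (-0.075 to 0.59) and Kdm4a (-0.46 to 0.19). In CBR+SAM against DMSO they did for Ehmt1 (-0.074 to 0.13), Setdb1 (-0.030 to 0.16), Setdb2 (-0.068 to 0.15), Suv39h2 (-0.26 to 0.080), Kdm3a (-0.051 to 0.19) and Kdm4a (-0.33 to 0.32).

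The number of genes called over the whole table was 0 in CBR against DMSO and 1 in each other comparison. In CBR against DMSO it was 1 with the 4 compared libraries alone and 0 to 2 with 1 library left out, 2 being without DMSO replicate 2. In CBR+SAM against CBR it was 0 with a pseudocount of 0.1, no filter, a mean of at least 10 or protein-coding genes alone, and 0 to 9 with 1 library left out, 9 being without CBR+SAM replicate 1. In CBR+SAM against DMSO it was 0 under those settings and with the 4 compared libraries alone, and 0 to 3 with 1 library left out, 3 being without DMSO replicate 2. The cause was not tested.

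Deviations of libraries with the same replicate number correlated across genes at 0.392 for CBR and DMSO, 0.0911 for CBR+SAM and CBR, and 0.218 for CBR+SAM and DMSO, of which 1 is below 0.1. Pairing was accepted only where every correlation exceeded 0.1, so the libraries were not treated as pairs. The labels tie the numbers to no shared source. With the replicate block, 0, 1 and 1 genes were called in CBR against DMSO, CBR+SAM against CBR and CBR+SAM against DMSO. Ehmt2 differed by 0.91, -0.25 and 0.66, values that the block cannot change because each number holds 1 library of each group. The SE of Ehmt2 in CBR against DMSO was 0.185 with the block, against 0.194 in the main fit.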

Other observations

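The heterochromatin protein gene Cbx3 was singled out after its values were seen, because it followed the replicate number and not the group. It stood at 7.12 and 2.76 in replicates 1 and 2 of CBR+SAM, at 7.97 and 1.57 in those of CBR, and at 6.44 and 2.58 in those of DMSO. The processed pseudogene Cbx3-ps6, 99.8% identical to a Cbx3 transcript over 552 bases, stood at 20.5, 34.8 and 25.6 in the first replicates of CBR+SAM, CBR and DMSO, and was listed at 0 in all 3 second replicates. The sum of Cbx3 and the 19 copies found for it followed the replicate number too. It was 32.9 and 7.74 in CBR+SAM, 46.9 and 6.21 in CBR, and 37.4 and 7.92 in DMSO. The labels do not say whether replicates of the same number shared a source.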
